A study of Mus musculus with 16 samples.

Results

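The phagocyte NADPH oxidase was described through 6 of its genes, Cybb, Cyba, Ncf1, Ncf4, Rac1 and Rac2, chosen by symbol from the 13085 genes of the deposited table and read in all 16 libraries. The 6 genes do not include every subunit of the enzyme. RNA of mouse monocytes was sequenced after 6 or 24 h in culture, either unstimulated or treated with IFN-γ followed by MegaCD40L, a multimeric form of the CD40 ligand. The question of the comparisons was how the mRNA of each subunit differed with the stimulus, with time and with loss of NFAM1, a receptor of myeloid cells that carries an ITAM.

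All mice were of the C57BL/6 strain per the labels. NFAM1-/- mice carry a CRISPR-cas9 deletion of exons 2 and 3 of Nfam1 in every cell, and NFAM1+/+ mice carry the intact gene. Monocytes were enriched by kit from bone marrow according to the methods, while the labels call them PBL monocytes, and ages of the mice are not given in the sources used here. MegaCD40L was used at 1 µg/mL, and the labels and the general stimulation methods give IFN-γ at 100 µg/mL, whereas the methods of the sequencing experiment give another dose, so which was used is unclear. At 6 h, unstimulated cells gave libraries 1 and 2 (NFAM1+/+) and 3 and 4 (NFAM1-/-), and stimulated cells gave libraries 26 and 10 (NFAM1+/+) and 11 and 12 (NFAM1-/-). At 24 h, unstimulated cells gave libraries 43 (NFAM1-/-) and 45 (NFAM1+/+) and stimulated cells libraries 55 (NFAM1-/-) and 57 (NFAM1+/+). Library 44 and library 46 (unstimulated) and library 56 and library 58 (stimulated) have a title and a genotype tag that name opposite genotypes, so these 4 entered only comparisons of stimulus and time. The study took monocytes from several mice of each genotype, but which mouse gave which library is not given in the sources used here. Mice may be shared between conditions, and the p-values measure only the spread between these libraries.

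The oxidase of phagocytes passes electrons from NADPH in the cytosol across a membrane to oxygen, which makes superoxide. Its membrane core, flavocytochrome b558, pairs the catalytic chain gp91phox (Cybb) with p22phox (Cyba), and it is silent until cytosolic proteins dock on it. Among these are the organizer p47phox (Ncf1), which is phosphorylated on activation, the phosphoinositide-binding p40phox (Ncf4) and a GTP-bound Rac protein. Rac2 is largely restricted to blood cells, whereas Rac1 is found in nearly all cells.

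The promoters of Cybb, Cyba and Ncf1 are shown because IFN-γ acts in part through the IRF factors, and binding strings of such factors can be read from the letters. Of the 6 genes, 3 had a window in the RefSeq promoter table (GRCm38.p6), which holds 250 bases before and 50 after the start. The 250 bases before each start are given 5′ to 3′ along the gene, all from the minus strand, at chrX:9469325-9469574 for Cybb, chr8:122432941-122433190 for Cyba and chr5:134229626-134229875 for Ncf1. The Cybb start used by this table lies 18.4 kb inside the gene span of GENCODE vM21 given below, whereas the Cyba and Ncf1 windows lie at the ends of their spans. Capitals mark every match to one of 4 strings on either strand, which were the GAS element TTCNNNGAA, the ISRE core (GAAA, any 2 bases, GAAA), the PU.1 core GAGGAA and the kappa B string (GGG, any 2 bases, TTTCC).
Cybb: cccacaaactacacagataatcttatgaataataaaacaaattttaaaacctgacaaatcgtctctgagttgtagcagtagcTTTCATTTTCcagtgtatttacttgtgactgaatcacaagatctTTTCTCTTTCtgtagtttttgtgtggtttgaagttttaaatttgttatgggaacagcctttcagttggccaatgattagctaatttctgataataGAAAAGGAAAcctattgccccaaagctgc
Cyba: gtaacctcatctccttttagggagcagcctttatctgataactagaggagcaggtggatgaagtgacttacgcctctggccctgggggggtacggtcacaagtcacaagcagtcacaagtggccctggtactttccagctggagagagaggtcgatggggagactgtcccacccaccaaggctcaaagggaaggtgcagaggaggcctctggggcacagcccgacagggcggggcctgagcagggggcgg
Ncf1: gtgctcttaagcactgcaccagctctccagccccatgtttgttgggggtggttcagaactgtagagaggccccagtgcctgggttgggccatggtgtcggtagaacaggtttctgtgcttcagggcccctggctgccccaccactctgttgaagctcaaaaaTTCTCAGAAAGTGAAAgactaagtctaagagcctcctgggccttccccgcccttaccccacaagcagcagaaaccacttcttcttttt

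The Cybb window held 3 ISRE cores, at -168 to -159 and -124 to -115 on the opposite strand and at -29 to -20 on the strand of the gene, counted from the start. A PU.1 core lay after the start, at 10 to 15 on the opposite strand. The Ncf1 window held a GAS element at -88 to -80 that shared 3 bases with an ISRE core at -82 to -73, so the capitals run on as one. None of the 4 strings was found in the Cyba window. Among 32851 windows of this length, 3.44% held the ISRE core, 8.3% the GAS element, 28.3% the PU.1 core and 1.63% the kappa B string. These are matches of letters and not sites of binding.

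In GENCODE vM21 (GRCm38), which is not the annotation of the deposited table, Cybb lies at chrX:9435252-9487771, Cyba at chr8:122424776-122432930, Ncf1 at chr5:134220053-134229625 and Rac1 at chr5:143503634-143528036, all on the minus strand. Ncf4 (chr15:78244801-78262580, plus strand) and Rac2 (chr15:78559167-78572783, minus strand) are neighbours, with 297 kb and 10 protein-coding genes between them, 6 of which are in the table. The libraries are non-stranded, so reads of overlapping antisense genes cannot be told apart from those of the subunits. Rac1, Rac2 and Rac3 are alike in sequence, and how reads that match more than 1 of them were assigned is not given in the sources used here.

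Libraries held 48295939 to 88514341 reads on the listed genes, and the subunits were far from the limit of detection, with 6324 reads for Rac2 in library 10 at the least and 361892 for Cybb in library 1 at the most. All 8 monocyte markers on the list were measured. CPM are counts put on a common library size, here the scaled size that the deposited values carry. The summed level of these markers was 22240.5 to 24389 CPM in unstimulated cells at 6 h and 8038 to 9955 CPM in stimulated cells. Most of the unstimulated sum was Lyz2, at 15690 to 17380 CPM without and 2667 to 4159 CPM with the stimulus. The markers did not move together, as 6 were lower and 2 higher with the stimulus (adjusted p under 0.05 in limma). The 2 higher ones were Fcgr1 (log2 fold change 4.47) and Ly6c2 (2.53), so the sum does not stand for the whole list. All 11 neutrophil markers were listed too, at a summed 100.3 to 367 CPM at 6 h, 649 to 1147 CPM unstimulated at 24 h and 127 to 217 CPM stimulated at 24 h. Of the B cell markers 4 of 6 were listed, at 40.7 to 551 CPM in sum over the libraries, and of the T and NK cell markers 0 of 7. Neutrophils also express the oxidase, so their part in any value below was not tested. In bulk RNA, fewer cells of a type and less RNA per cell cannot be told apart.

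The scale of the values matters for all that follows. Dividing the reads of a library by its scaled size gave 0.756 to 0.775 without and 1.24 to 1.32 with the stimulus at 6 h, and 0.776 to 0.788 and 0.970 to 0.997 at 24 h. Values put on the read total of each library instead (the own-total scale) therefore lower the log2 fold change of every gene by 0.73 at 6 h and by 0.33 at 24 h, and it moves the median over all 12306 genes tested from -0.13 to -0.86 at 6 h. Of the genes with at least a 2-fold change and an adjusted p under 0.05, 48.2% were higher with the stimulus at 6 h on the deposited scale and 21.7% on the own-total scale, and at 24 h the shares were 44.5% and 30.7%. Values below are on the deposited scale unless stated, fold changes are log2 differences with their SE, and adjusted p-values are Benjamini-Hochberg over all genes tested in limma.

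**Figure D1:**
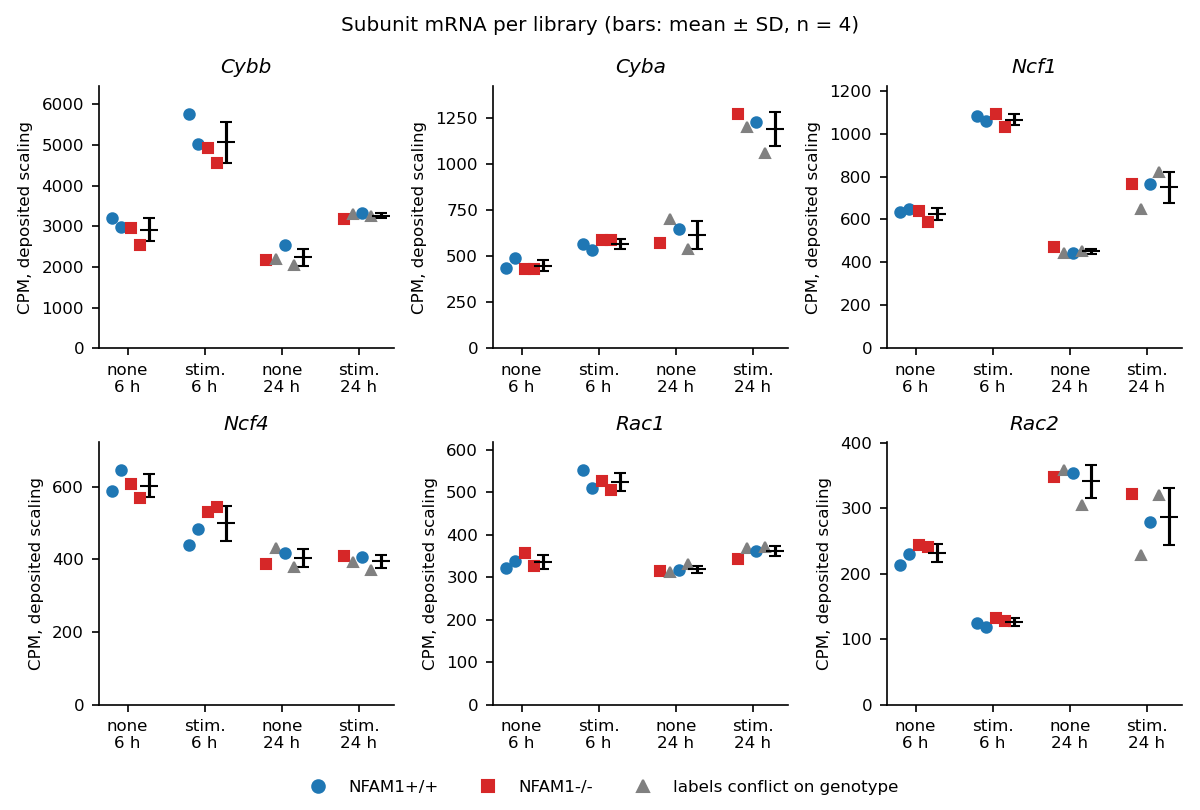
Each point is 1 library, the vertical axis is CPM on the deposited scale starting at 0, and bars give the mean ± SD of 4 libraries in each of the 4 conditions. Cybb and Ncf1 peak in stimulated cells at 6 h (means 5067 and 1066 CPM), Cyba in stimulated cells at 24 h (1189 CPM), and Rac2 is lowest in stimulated cells at 6 h (126 CPM). On the own-total scale Cybb and Ncf1 have their highest means there too (3976 and 837 CPM), but close to unstimulated cells at 6 h (3804 and 817 CPM). With quantile normalization both are lower in stimulated than in unstimulated cells at 6 h (-0.55 and -0.34 on the log2 scale).

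The stimulus response at 6 h covered all 6 subunits. On the deposited scale 4 rose (Cybb, Ncf1, Rac1, Cyba) and 2 fell (Rac2, Ncf4), where 78% of all genes tested passed, 34.7% higher and 43.3% lower. Rac2 and Ncf4 were lower under each of the 4 scalings tried, although with centring on medians Ncf4 missed the threshold (-0.14, adjusted p = 0.05244). For Cybb, Cyba, Ncf1 and Rac1 the rise held with centring on medians (0.93, 0.49, 0.90 and 0.78), but it turned or was lost on the own-total scale and with quantile normalization. None of the 6 reached a 2-fold change, which 39.2% of genes did. In 6 of 6 the 4 stimulated libraries did not overlap the 4 unstimulated ones, as in 73.1% of all genes.

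For the catalytic chain, Cybb was at 3205, 2982, 2963 and 2529.9 CPM in libraries 1 to 4 and at 5761, 5031, 4920 and 4557 CPM in the stimulated libraries 26, 10, 11 and 12. Every stimulated library lay above every unstimulated one, and the log2 fold change was 0.80 ± 0.09 (SE, n = 4 and 4, adjusted p = 4.507e-07). On the own-total scale it was 0.065 (adjusted p = 0.4722), with quantile normalization -0.55 (adjusted p = 2.632e-05) and with centring on medians 0.93.

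Cyba, whose product holds gp91phox stable in the membrane, was at 433, 492, 429 and 432 CPM without and at 565, 530.3, 588 and 588 CPM with the stimulus. The groups did not overlap and the log2 fold change was 0.35 ± 0.08 (adjusted p = 0.0009359), but it was -0.38 (adjusted p = 0.0001858) on the own-total scale and -0.64 (adjusted p = 1.007e-06) with quantile normalization. The ratio of Cybb to Cyba within a library, which a single scaling factor per library leaves as it is, was 5.86 to 7.40 without and 7.75 to 10.2 with the stimulus. The log2 ratio was higher by 0.45 (exact permutation test, two-sided, p = 0.0286, the smallest that 4 against 4 libraries allow, and 0.0381 adjusted over 12 ratio tests). Quantile normalization, which is not one factor per library, brought this difference to 0.084, and the groups then overlapped (exact permutation test, p = 0.4857, adjusted 0.4857). These 3 ratios, of partner subunits, were chosen after the values were seen.

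Ncf1, the organizer, was at 634, 649.7, 639 and 586 CPM without and at 1080, 1060, 1091 and 1031 CPM with the stimulus. Its log2 fold change was 0.77 ± 0.06 (adjusted p = 6.557e-09) on the deposited scale, 0.035 (adjusted p = 0.6221) on the own-total scale and -0.34 (adjusted p = 0.0001671) with quantile normalization. Ncf4 went the other way, from 589, 645, 609 and 569 CPM to 439.9, 483, 529 and 545 CPM. It fell by 0.28 ± 0.07 on the log2 scale (adjusted p = 0.001543), by 1.01 on the own-total scale and by 1.31 with quantile normalization.

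Ncf1 and Ncf4 thus parted within each library. Ncf1 over Ncf4 lay between 1.01 and 1.08 without and between 1.89 and 2.46 with the stimulus, a 2.06-fold difference (exact permutation test, p = 0.0286, adjusted 0.0381).

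The Rac genes parted further. Rac1 was at 322, 337, 356 and 325 CPM without and at 551, 510.3, 527 and 505 CPM with the stimulus (log2 fold change 0.64 ± 0.05, adjusted p = 1.757e-09, own-total scale -0.088, adjusted p = 0.0792, quantile normalization -0.31, adjusted p = 7.771e-06). Rac2 was at 213, 230.1, 244 and 240.2 CPM without and at 125, 119, 133 and 128 CPM with it. Rac2 fell by 0.88 ± 0.09 (adjusted p = 1.097e-07), by 1.61 on the own-total scale and by 1.47 with quantile normalization. The ratio of Rac1 to Rac2 lay between 1.35 and 1.51 without and between 3.94 and 4.42 with the stimulus, 2.87-fold higher (exact permutation test, p = 0.0286, adjusted 0.0381).

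**Figure D2:**
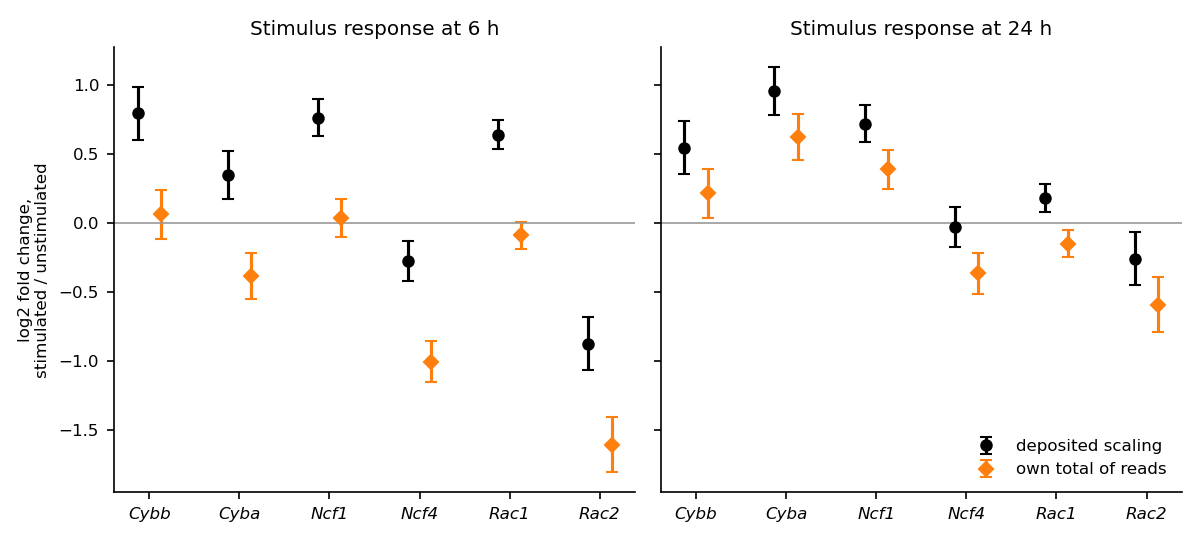
Log2 fold changes of stimulated over unstimulated cells with 95% confidence intervals (n = 4 and 4) at 6 h and 24 h, on the deposited scale (circles) and on the own-total scale (diamonds). At 6 h Cyba lies at 0.35 on the first and -0.38 on the second scale and Rac1 turns from 0.64 to -0.088, whereas Rac2 (-0.88 and -1.61) and Ncf4 (-0.28 and -1.01) lie below 0 on both.

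At 24 h the stimulus response was led by Cyba. Cyba, Ncf1, Cybb and Rac1 rose and Rac2 fell, 5 of 6 where 74.3% of all genes passed (38.2% higher and 36.1% lower), and Ncf4 did not pass. None reached 2-fold, which 32.7% of genes did, though Cyba came close at 1.94-fold. Cyba and Ncf1 were higher and Rac2 was lower under all 4 scalings, whereas Cybb and Rac1 turned to -0.078 and -0.24 with quantile normalization and Rac1 to -0.15 on the own-total scale. In 4 of 6 genes the libraries of the groups did not overlap, as in 69.8% of all genes.

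Cyba was at 572, 699, 649 and 536 CPM in the unstimulated libraries 43 to 46 and at 1270, 1200, 1229 and 1056 CPM in the stimulated libraries 55 to 58. All stimulated libraries were higher, with a log2 fold change of 0.96 ± 0.08 (adjusted p = 1.116e-08) on the deposited and 0.62 (adjusted p = 1.243e-06) on the own-total scale. Its partner Cybb was at 2181, 2187, 2537 and 2058 CPM without and at 3187, 3295, 3339.7 and 3244 CPM with the stimulus (0.55 ± 0.09, adjusted p = 4.113e-05, own-total scale 0.21, adjusted p = 0.02856). The ratio of Cybb to Cyba now fell with the stimulus, from 3.13 to 3.91 down to 2.51 to 3.07 (log2 difference -0.41, exact permutation test, p = 0.0286, adjusted 0.0381) and by -0.47 with quantile normalization.

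Ncf1 was at 469.8, 444, 444 and 452 CPM without and at 764, 647, 767 and 819 CPM with the stimulus (0.72 ± 0.06, adjusted p = 1.767e-08, own-total scale 0.39, adjusted p = 4.266e-05, quantile normalization 0.17, adjusted p = 0.03203). Ncf4 was at 387, 430.1, 416 and 379 CPM without and at 408, 393, 406 and 369 CPM with it. The Ncf4 groups overlapped, and its log2 fold change was -0.03 (95% confidence interval -0.18 to 0.11, adjusted p = 0.6963), though on the own-total scale it was -0.36 (adjusted p = 0.000164) and with quantile normalization -0.49 (adjusted p = 6.508e-06). The ratio of Ncf1 to Ncf4 was 1.03 to 1.21 without and 1.65 to 2.22 with the stimulus, 1.69-fold higher (exact permutation test, p = 0.0286, adjusted 0.0381).

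Rac1 was at 314, 312, 316 and 331 CPM without and at 343, 368, 362 and 372 CPM with the stimulus (0.18 ± 0.05, adjusted p = 0.002619). Rac2 was at 347, 358, 354 and 304 CPM without and at 322, 228, 278 and 320.0 CPM with it, and the groups overlapped. Rac2 fell by 0.26 ± 0.09 (adjusted p = 0.01662), but without library 56, the lowest, the value was -0.15 (adjusted p = 0.06767), and with only these 8 libraries in the model the adjusted p was 0.05094. The ratio of Rac1 to Rac2, 0.871 to 1.09 without and 1.07 to 1.61 with the stimulus, overlapped between the groups (exact permutation test, p = 0.0571, adjusted 0.0686).

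**Figure D3:**
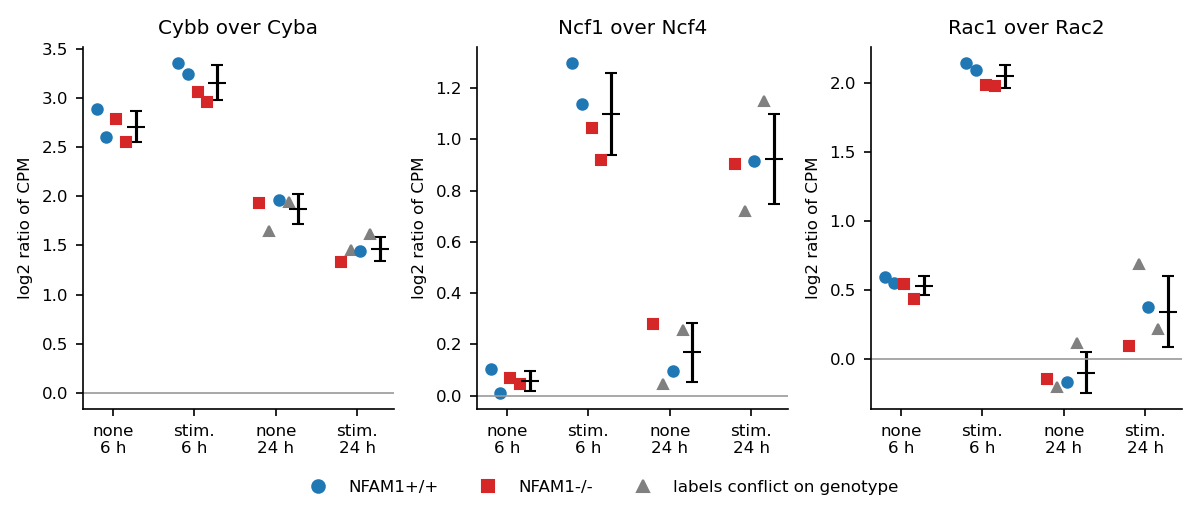
Log2 ratio of CPM of 2 partner subunits within each library, by condition, with the mean ± SD of 4 libraries, a quantity that one scaling factor per library leaves as it is. Cybb over Cyba is higher with the stimulus at 6 h (3.15 against 2.71, though 3.00 against 2.91 with quantile normalization) and lower at 24 h (1.46 against 1.87), Ncf1 over Ncf4 is higher at both times, and Rac1 over Rac2 stands at 2.05 in stimulated cells at 6 h.

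Next the difference between the responses at 24 h and 6 h was tested in the same model. Of the 6 genes 3 passed with a positive and 1 with a negative difference (24 h minus 6 h), where 66.4% of all genes passed (35% positive and 31.3% negative). The rise of Cyba was larger at 24 h than at 6 h (difference 0.61 ± 0.12, adjusted p = 0.0001896), and the fall of Rac2 was smaller at 24 h (0.62 ± 0.13, adjusted p = 0.0004387). Both differences were positive under all 4 scalings (0.47 to 1.03 and 0.48 to 1.02). The rise of Rac1 was smaller at 24 h (-0.46 ± 0.07, adjusted p = 1.762e-05), but -0.061 (adjusted p = 0.4089) on the own-total scale and 0.069 (adjusted p = 0.3602) with quantile normalization. For Ncf4, which passed as lower at 6 h and did not pass at 24 h on the deposited scale, the difference of 0.24 ± 0.10 (adjusted p = 0.03596) missed the threshold with centring on medians (0.10, adjusted p = 0.3113) and without each of libraries 2, 3, 26, 10, 43, 46, 55 and 57 in turn (adjusted p of 0.05751 to 0.07703). Cybb (-0.25, 95% confidence interval -0.52 to 0.03, adjusted p = 0.1038) and Ncf1 (-0.04, -0.23 to 0.15, adjusted p = 0.6894) did not pass on the deposited scale. Cybb passed in opposite directions with centring on medians (-0.39, adjusted p = 0.02276) and quantile normalization (0.47, adjusted p = 0.003689), and Ncf1 passed on the own-total scale (0.35, adjusted p = 0.002656) and with quantile normalization (0.51, adjusted p = 0.0001604).

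Without a stimulus, levels also moved between 6 and 24 h of culture, a comparison in which the scale differs little. Cyba (0.45 ± 0.08, adjusted p = 0.0001313) and Rac2 (0.55 ± 0.09, adjusted p = 5.001e-05) were higher at 24 h. Ncf4 (-0.58 ± 0.07, adjusted p = 1.522e-06), Ncf1 (-0.47 ± 0.06, adjusted p = 7.075e-06) and Cybb (-0.38 ± 0.09, adjusted p = 0.001729) were lower, and Rac1 did not pass (-0.08, 95% confidence interval -0.18 to 0.03, adjusted p = 0.1894). That is 5 of 6 genes, where 62.9% of all genes passed (33.3% higher and 29.6% lower), and these calls and directions were the same under all 4 scalings. Beside them, 9 of 11 neutrophil markers were at least 2-fold higher at 24 h, with a median log2 fold change of 2.18 over the list against 0.04 over all genes, and their part in the values of Rac2 and Cyba was not tested.

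In stimulated cells the same 2 genes, Rac2 and Cyba, were higher at 24 h than at 6 h, each at least 2-fold on the deposited scale. Rac2 differed by 1.17 ± 0.09 (adjusted p = 3.102e-09) and Cyba by 1.06 ± 0.08 (adjusted p = 2.881e-09), where 16.3% of all genes were called higher at 2-fold. Both were higher under all 4 scalings, but with centring on medians Cyba was at 0.90, under 2-fold. Here 0 of 11 neutrophil markers passed as higher and 4 passed as lower. Cybb (-0.63), Rac1 (-0.53), Ncf1 (-0.51) and Ncf4 (-0.34) passed as lower on the deposited scale, which made 6 of 6 where 75.6% of all genes passed (39.4% higher and 36.2% lower). The libraries did not overlap for 6 of 6 genes here (69% of all genes) and for 4 of 6 in the unstimulated comparison (59.9%). With quantile normalization only Ncf4 of these 4 passed, and it turned to 0.17 (adjusted p = 0.03283). Within a library the ratio of Cybb to Cyba was 3.23-fold lower and that of Rac1 to Rac2 3.26-fold lower at 24 h than at 6 h (exact permutation test, p = 0.0286 for each, adjusted 0.0381).

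Levels of different genes were compared per kilobase of merged exons in GENCODE vM21. In unstimulated cells at 6 h the order was Cybb (503 ± 48.6 CPM per kb, SD, n = 4), Cyba (429.8 ± 29.0), Ncf4 (298 ± 16.1), Ncf1 (171 ± 7.65), Rac2 (74.7 ± 4.49) and Rac1 (74.6 ± 3.43). The libraries of Cybb and Cyba overlapped, as did those of Rac2 and Rac1. In stimulated cells at 6 h no neighbours overlapped, with Cybb at 872 ± 86.9, Cyba at 546 ± 26.2, Ncf1 at 291 ± 7.20, Ncf4 at 247 ± 23.6, Rac1 at 116 ± 4.64 and Rac2 at 40.7 ± 1.87 CPM per kb. At 24 h Cyba stood first in both conditions, at 591 ± 70.9 CPM per kb unstimulated and 1144 ± 89.4 stimulated, above Cybb at 386 ± 35.5 and 562 ± 11.3. The lengths enter every one of these levels, and the transcripts that these cells use were not measured here.

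The deletion was next set against the subunits. Nfam1 itself, counted over the whole gene and so also over exons that remain, was at 432 and 408 CPM in NFAM1+/+ and 299 and 321 CPM in NFAM1-/- libraries without stimulus at 6 h, and at 133 and 129 against 135 and 127 CPM with it. Gene-level values therefore do not check the labels of genotype.

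No subunit passed the genotype test at 6 h. Of the 6, 0 passed without stimulus (0.157% of all genes did, 0 of 6 at an unadjusted p under 0.05), 0 with stimulus (0.0413%, 1 of 6 unadjusted) and 0 in the interaction (0% of all genes, 1 of 6 unadjusted), and 0 passed with voom weights. With 2 libraries a group the 95% confidence intervals over the 6 genes ran from -0.44 to 0.29 on the log2 scale without and from -0.45 to 0.40 with the stimulus. Libraries of the genotypes did not overlap for 3 of 6 genes without stimulus (42.3% of all genes) and for 4 of 6 with it (43%).

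The gene with the lowest p was Ncf4. In stimulated cells it was at 529 and 545 CPM in NFAM1-/- and 439.9 and 483 CPM in NFAM1+/+ libraries, higher without overlap (log2 fold change 0.22 ± 0.08, unadjusted p = 0.02293, adjusted p = 0.3522). In unstimulated cells the genotypes overlapped (-0.07, adjusted p = 0.9051), and the interaction was 0.29 ± 0.11 (adjusted p = 0.7104). Its response to the stimulus passed in NFAM1+/+ (-0.42, adjusted p = 0.00121) and not in NFAM1-/- cells (-0.13, adjusted p = 0.1738), a contrast that the interaction test does not carry. Cybb was lower without overlap in NFAM1-/- libraries in both conditions, with log2 fold changes of -0.18 and -0.19, each ± 0.12 (adjusted p = 0.7646 and 0.5276). Rac2 was higher without overlap in both, by 0.13 and 0.10, each ± 0.07 (adjusted p = 0.6932 and 0.5824). The 5 genes other than Ncf4 responded to the stimulus in each genotype on the deposited scale, where 71.4% (NFAM1+/+) and 70.4% (NFAM1-/-) of all genes passed.

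**Figure D4:**
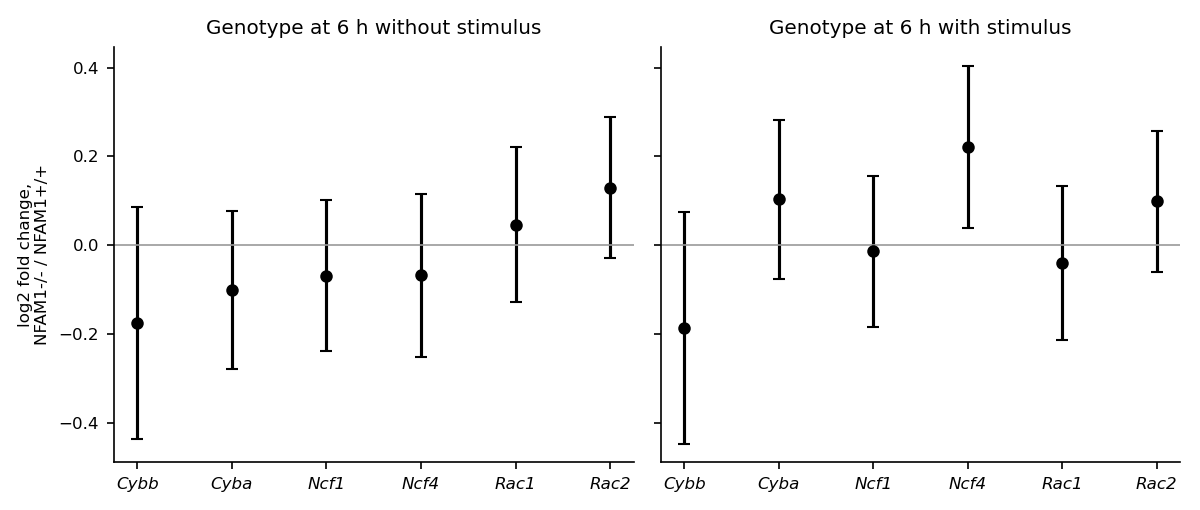
Log2 fold change of NFAM1-/- over NFAM1+/+ cells at 6 h without and with the stimulus, with 95% confidence intervals from the model of 8 libraries (n = 2 and 2). All 12 points lie between -0.19 and 0.22, and the interval of Ncf4 with the stimulus (0.04 to 0.40) is the one that does not reach 0, with an adjusted p of 0.3522.

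At 24 h only 1 library per genotype and condition has labels that name 1 genotype, so no test was made. Differences of NFAM1-/- from NFAM1+/+ lay between -0.22 (Cybb) and 0.081 (Ncf1) without and between -0.077 (Rac1) and 0.21 (Rac2) with the stimulus on the log2 scale. None was past 2-fold, as 2.21% and 2.31% of all genes were. For Rac2 with the stimulus the value was 0.35 when the 4 conflicting libraries were assigned by title and -0.14 when they were assigned by tag.

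The genes around the oxidase were counted in 7 lists that hold 54 genes, of which 43 were tested. At 6 h 25 passed as higher and 14 as lower with the stimulus on the deposited scale (34.7% and 43.3% of all genes), with a median log2 fold change of 0.36 against -0.13 over all genes. At 24 h 20 were higher and 14 lower (38.2% and 36.1% of all genes), with a median of 0.11 against 0.02. The balance turned on the own-total scale, with 11 higher and 27 lower at 6 h (18.7% and 70.1% of all genes) and 14 higher and 23 lower at 24 h (24.1% and 52% of all genes). With quantile normalization it was 12 and 26 at 6 h (30% and 47.9% of all genes) and 14 and 23 at 24 h (36.3% and 37.3%). With centring on medians it was 27 and 13 at 6 h (39.5% and 37.5% of all genes) and 19 and 13 at 24 h (38.1% and 36.1%).

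Factors known to act on the Cybb promoter rose in most cases. All 8 on the list passed as higher at 6 h and 6 of 8 at 24 h on the deposited scale, where 34.7% and 38.2% of all genes were higher. On the own-total scale 5 passed as higher and 2 as lower at 6 h (18.7% and 70.1% of all genes), and 5 as higher and 1 as lower at 24 h (24.1% and 52%). The interferon regulatory factor Irf1 was higher by 6.50 (6 h) and 5.34 (24 h), Irf8, which directs myeloid cells, by 3.36 and 2.13, and Irf2 by 2.34 and 1.74. These 3 were higher under all 4 scalings at both times. Cybb differed by 0.80 and 0.55 in the same comparisons on the deposited scale. At 6 h Cybb was at 0.065 (adjusted p = 0.4722) on the own-total scale and at -0.55 with quantile normalization. At 24 h its values on these 2 scalings were 0.21 and -0.078. Spi1, the gene of PU.1 and also on the list, was at 0.47 at 6 h. It turned to -0.27 on the own-total scale and to -0.62 with quantile normalization.

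Among proteins that work beside the oxidase, the proton channel Hvcn1, which offsets the charge that the oxidase moves, was at -0.45 at 6 h and 1.46 at 24 h. Prdx6, a peroxiredoxin with phospholipase activity, was at -0.87 at 6 h and 1.34 at 24 h, and its calls were the same under all 4 scalings. The signs of Hvcn1 were kept too, but its value at 6 h did not pass with centring on medians (-0.31, adjusted p = 0.1265) or quantile normalization (-0.18, adjusted p = 0.4117). Rap1b, a small GTPase, was higher by 1.03 at 6 h but at -0.028 with quantile normalization. Nox1, the catalytic chain of the oxidase of colon epithelium, had 69 to 154 reads in the 4 stimulated libraries at 6 h, 0 to 30 in the unstimulated ones and 0 to 20 at 24 h, a low level against 178756 or more reads of Cybb.

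Of 9 regulators of Rac 5 were higher and 3 lower at 6 h, and 2 were higher and 4 lower at 24 h, on the deposited scale (34.7% and 43.3% of all genes at 6 h, 38.2% and 36.1% at 24 h). On the own-total scale the counts were 0 and 8 at 6 h (18.7% and 70.1% of all genes) and 1 and 7 at 24 h (24.1% and 52%). With quantile normalization they were 0 and 8 at 6 h (30% and 47.9% of all genes) and 1 and 8 at 24 h (36.3% and 37.3%). With centring on medians they were 5 and 3 at 6 h (39.5% and 37.5% of all genes) and 2 and 3 at 24 h (38.1% and 36.1%). Tiam2, an exchange factor for Rac, had log2 fold changes of -3.18 (6 h) and -3.96 (24 h), and Vav3, another exchange factor, of -0.39 and -2.50. Rac3, a close relative of Rac1 and Rac2, was at -1.24 and -2.90. These 3 genes kept their signs under all 4 scalings.

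Kinases that can phosphorylate p47phox, of which 9 of 11 were tested, were higher in 3 and lower in 4 cases at 6 h and higher in 2 and lower in 5 at 24 h on the deposited scale. The shares over all genes were 34.7% higher and 43.3% lower at 6 h and 38.2% and 36.1% at 24 h. On the own-total scale 0 were higher and 8 lower at 6 h (18.7% and 70.1% of all genes) and 0 higher and 9 lower at 24 h (24.1% and 52%). With quantile normalization the counts were 1 and 8 at 6 h (30% and 47.9% of all genes) and 0 and 9 at 24 h (36.3% and 37.3%). With centring on medians the counts were 5 and 4 at 6 h (39.5% and 37.5% of all genes) and 1 and 5 at 24 h (38.1% and 36.1%). Mapk14, the kinase p38α, was at -2.43 (6 h) and -0.68 (24 h), and Prkcb, protein kinase C beta, at -1.5 and -1.32. Enzymes that dispose of superoxide and peroxide were split. The mitochondrial dismutase Sod2 was higher by 1.86 and 2.83, the extracellular dismutase Sod3, at 6 to 24 reads in unstimulated libraries at 6 h, by 3.10 and 4.03, and catalase (Cat) was at -1.51 and -1.59. Myeloperoxidase (Mpo), also on the neutrophil list, was at 0.14 (adjusted p = 0.7795) at 6 h and -3.53 (adjusted p = 1.048e-06) at 24 h.

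Across the 16 libraries the subunits fell into patterns that are described here with no test, since the libraries share 4 conditions and their scaling. Cybb went with Ncf1 (Pearson r = 0.96) and Rac1 (r = 0.93), and Rac2 ran opposite to Rac1 (r = -0.91) and Cybb (r = -0.89). Cyba went with none of these, at r = 0.03 with Cybb, its partner in the membrane, and at r = -0.69 with Ncf4. The genes most like Cybb over the 16 libraries were Mex3c, Rab10 and Ino80 (r of 0.98 to 0.99), those like Cyba included Kctd17 and Rnaset2a (0.98 to 0.99), and those most like Ncf1 Klf3, Metap2 and Ppp1r11 (0.99). For Ncf4 they were Sae1, Banf1 and 4930579G24Rik (0.97), for Rac1 Ppp2r5a, Rab8b and Selenot (0.99), and for Rac2 Fcgr2b, Aldh3b1 and Zfp362 (0.98 to 0.99).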

How the data were processed

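RNA of mouse monocytes was sequenced by the authors from polyA libraries (non-stranded, paired-end) in 16 samples. The deposited table holds log2 CPM, which the authors made by aligning reads with STAR, counting with Rsubread and normalizing with edgeR, and the submitters' processing notes also name FastQC, limma and the builds GRCm39 and mm39, with no versions. With an offset of 0.5 taken off, all deposited log2 values came out as whole reads of a library-wide scale (tolerance 0.05 reads), which gave the depth. Dates stand in place of 17 symbols.

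limma 3.58.1 (R 4.3.3, statmod 1.5.0) was fitted to the deposited log2 values of all 16 libraries in 4 groups of stimulus and time, with 12 residual degrees of freedom, over 12306 genes (779 under the minimum of 1 CPM in 4 libraries were left out). Genotype was fitted in the 8 libraries at 6 h, with 4 residual degrees of freedom, over 12111 genes (974 left out). A gene passed at a Benjamini-Hochberg adjusted p under 0.05, and calls at 2-fold are the thresholds of the study. Ratios were tested with exact permutation tests (scipy 1.17.1). Figures were drawn with matplotlib 3.10.9. The fits of the 6 h response and of genotype with stimulus were tested on simulated data. Planted changes of 1.5 on the log2 scale were recovered at 2-fold in 86.5% of cases in each. Smaller changes, such as those of the subunits on the deposited scale, and differences of scaling were not simulated. Models of counts were not run, and voom weights from the recovered reads were used as an alternative.

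The members, the gene lists and the tests were chosen with earlier results of these data known. Named genes are the 6 subunits, up to 4 genes per list with the largest change among those called at 2-fold in a stimulus response, and the 3 genes most correlated with each subunit, and some of these are not reported here. Libraries were grouped by their labels, and no 2 were duplicates (chi-square per degree of freedom of 18.8 or more). Alternatives were other filters, scalings, weights and models, and leaving out each library. Sequences are from RefSeq.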

Additional observations from a re-analysis of the deposited data

Results flagged for a closer look

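In unstimulated cells at 6 h, Cyba stood apart in 1 library. Library 2 (NFAM1+/+, 492 CPM) lay above the other 3 (429 to 433 CPM), and the gap made up 0.933 of the range, above the critical value of 0.829 for 4 values. Chance gives such a gap in about 1 of 20 groups, and 24 groups were examined. Without any 1 library the response of Cyba at 6 h stayed between 0.33 and 0.39 on the log2 scale.

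The response to the stimulus differed between 24 h and 6 h for 4 subunits by the interaction test in limma. The difference of the log2 responses (24 h minus 6 h) was 0.61 for Cyba, 0.62 for Rac2, 0.24 for Ncf4 and -0.46 for Rac1. Cyba and Rac2 passed under all 4 scalings, whereas Rac1 missed the threshold on the own-total scale and with quantile normalization and Ncf4 with centring on medians. Summed neutrophil markers, 649 to 1147 CPM unstimulated and 127 to 217 CPM stimulated at 24 h, against 116 to 273 CPM and 100.3 to 367 CPM at 6 h, moved over the same conditions, and their part was not tested.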

How the results depend on the processing

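No paired analysis was possible because which mouse gave which library is not given in the sources used here. The scaling changed the most. With quantile normalization the 6 h response was -0.55 for Cybb, -0.64 for Cyba, -0.34 for Ncf1 and -0.31 for Rac1, the 24 h response -0.078 for Cybb and -0.24 for Rac1, the difference of responses 0.47 for Cybb, 0.51 for Ncf1 and 0.069 for Rac1, the change from 6 to 24 h in stimulated cells 0.17 for Ncf4, and the genotype difference with stimulus 0.038 for Ncf1. On the own-total scale the 6 h response was -0.38 for Cyba and -0.088 for Rac1, the 24 h response -0.15 for Rac1, the difference of responses 0.15 for Cybb and 0.35 for Ncf1, and the change from 6 to 24 h in stimulated cells 0.036 for Ncf4, and 2 rather than 4 of the subunits had a higher mean level at 6 h with the stimulus. The own-total scale shifts all genes alike by construction, and for quantile normalization the cause was not tested. Of the 12 ratio comparisons, Cybb over Cyba at 6 h (0.45, and 0.084 with quantile normalization, an alternative added after the values were seen) was the one whose call changed. With the own-total scale the share of higher genes among those called moved from 42.6% to 68.1% for the difference of responses and from 49.3% to 69.7% for 24 against 6 h in stimulated cells.

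Counts of all genes called, 4830 and 4028 for the 6 h and 24 h responses, 3885 for their difference, 2506 and 4083 for 24 against 6 h without and with stimulus, 8 and 4 for genotype without and with stimulus and 0 for the interaction, moved by over 1.5 times as follows. A mean of at least 5 CPM, which tests fewer genes, gave 2554 at 24 h, 1443 for time without stimulus, and 5 and 1 for genotype. No minimum fold gave 9596, 9143, 8168, 7742, 9308 and 19. Genotype without and with stimulus gave 4 and 0 with voom weights, genotype with stimulus 2 with centring on medians and 0 with only the groups compared. At 24 h, where 261 and 273 genes were past 2-fold between single libraries, 27 and 14 were called with genotype by title and 1 and 0 by tag, with 2 libraries a group and a test.

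Leaving out 1 library in turn gave 0 to 15 genes for genotype without stimulus, 0 to 135 with stimulus (135 without library 10) and 0 to 68 for the interaction (68 without library 10). Where such a fit leaves 1 library in a group, that library is assumed to vary like the others. Among the subunits, signs turned in values that did not pass on the deposited scale with all libraries in the fit. For genotype they were Rac1 without stimulus (-0.019 to 0.11) and, with stimulus, Ncf1 (-0.054 to 0.028) and Rac1 (-0.096 to 0.015), and for the interaction Cybb (-0.12 to 0.10), Ncf1 (-0.0072 to 0.12) and Rac2 (-0.087 to 0.024). The 24 h response of Ncf4 (-0.061 to 0.000885) and the difference of Ncf1 (-0.088 to 0.025) turned too. No other sign of the subunits turned on leaving out 1 library. Each subunit had 6324 or more reads in every library, so the number of libraries, 2 per genotype group at 6 h, limits the precision more than depth does.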
